A study of Mus musculus with 4 samples.

Results

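RIKEN cDNA names, which end in Rik, were given to mouse transcripts known at first only as sequenced cDNA clones, with no assigned function. Many have since received a gene symbol, while others remain uncharacterised coding or long noncoding transcripts (lncRNAs). During a fast the liver turns from storing glucose to making it and to burning fat, and a meal reverses this within hours through insulin and falling glucagon. The transcripts described here are the Rik probes of a whole mouse genome array that were well above background in both colours on all 4 arrays and whose mean ratio between fasted and refed liver was 0.5 or more on the log2 scale in either direction. There were 161 such probes for 147 gene names, out of 3779 Rik probes for 3250 names and 39429 gene probes in all.

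Each array compared the liver of a mouse fasted for 24 h with that of a mouse fasted for 24 h and then given food for 2 h. All were male C57BL/6J mice (strain label C57/Bl6) aged 8 to 12 weeks, and there was no group that had never been fasted. Livers were individual, 4 fasted and 4 refed, and pairs were drawn at random. The fasted liver was labelled with Cy5 (red) on replicates 1 and 2 and with Cy3 (green) on replicates 3 and 4. In what follows a ratio is log2 of fasted over refed liver, and a mean is given with its SD over the 4 arrays. With 4 arrays the precision is limited.

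The rule used the scanner software's processed signals. The same arrays were also normalised from the median signals (normexp background correction, then loess), and the ratios below are those values unless processed signals are named. The background step used an offset of 50. At the median of the 159 members with a value on all 4 arrays, the mean by loess was 0.63 times the mean by processed signals. The sign was the same in each of them. The signals, background step and normalisation all differed, and the members were chosen on processed signals. The cause of the smaller loess means was not tested. The other 2 members, 3110009E18Rik and 2210404J11Rik (Ermard), lost a spot to an outlier flag. All 6 hepatocyte markers (Alb, Apoa1, Ttr, Serpina1a, Cps1 and Tat) were well above background in both colours. The mean ratio over the 6 was 0.34, 0.50, 0.13 and 0.06 on replicates 1 to 4. In limma, at an adjusted p under 0.10 and a 1.5-fold difference, 1 of the 6 was called. The mean over the list does not show that each marker was higher in fasted liver. Markers of pancreatic acinar cells stood apart on replicate 3, with a mean ratio of -3.26 over the 4 of 10 that were bright enough, against 0.04 to 0.06 on the other arrays. Erythroid markers had means of 1.34, -0.26, 1.74 and 0.21 on replicates 1 to 4, and the 1 adipocyte marker of 4 that was bright enough had -0.22, 0.55, -1.37 and 0.42. The part of such cells in any value below was not tested beyond leaving each array out, and in whole liver fewer cells of a type and less RNA per cell cannot be told apart.

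Because the rule selected on the ratio between fasted and refed liver, that ratio is given for the members as a description with no test. Of the 161 probes, 107 (96 gene names) were higher and 54 (51 gene names) were lower in fasted liver. Among the 1241 Rik probes bright in both colours, 8.62% passed the limit upwards and 4.35% downwards. The background over all 18428 probes of that brightness was 5.83% upwards and 6.30% downwards. The share of higher probes was thus 66.5% of the members and 48.1% of all probes past the limit.

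The probes are 60 bases long, and the sequence that was measured matters here because a Rik name often has little else to define it. The 60-mers of the leading members in each direction, and of Tigar because its probes adjoin, are given 5′ to 3′ with mm9 coordinates as the array design lists them. Capitals mark the polyadenylation signal AATAAA or ATTAAA where the probe holds one.
1300015D01Rik (chr2:172958362-172958421, + strand): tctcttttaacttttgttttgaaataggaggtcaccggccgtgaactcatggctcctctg
8430408G22Rik (chr6:116602564-116602623, + strand): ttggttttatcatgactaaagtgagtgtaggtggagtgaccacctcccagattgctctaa
4833411C07Rik (chr8:10903704-10903763, + strand): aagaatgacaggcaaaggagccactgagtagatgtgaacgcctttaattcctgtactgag
E030018B13Rik (chr7:71065366-71065425, + strand): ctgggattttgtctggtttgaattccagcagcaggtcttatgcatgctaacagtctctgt
9130221J18Rik (chr8:5083366-5083425, - strand): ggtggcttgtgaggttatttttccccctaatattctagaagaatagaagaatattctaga
1810063B07Rik (chr14:20894894-20894953, - strand): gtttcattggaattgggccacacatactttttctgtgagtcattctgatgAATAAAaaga
9630033F20Rik, first probe (chr6:127035171-127035230, - strand): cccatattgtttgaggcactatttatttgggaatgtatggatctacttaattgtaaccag
9630033F20Rik, other probe (chr6:127035231-127035290, - strand): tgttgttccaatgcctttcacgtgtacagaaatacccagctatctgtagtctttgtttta
The probes of 9630033F20Rik (Tigar) lie end to end. A polyadenylation signal was found in 15 of the 107 higher probes and in 13 of the 54 lower probes, beside 3626 of all 18428 bright probes.

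The largest difference by processed signals was that of 1300015D01Rik, now Ctcflos in RefSeq, an lncRNA. Its ratios on replicates 1 to 4 were 0.95, 1.51, 1.54 and 1.64, a mean of 1.41 ± 0.31, or 2.28 by processed signals. The log2 levels of the fasted livers, 8.17 to 8.33, lay above all of the refed livers, 6.55 to 7.38. Its probe lies 25886 bases from that of Pck1, on the same strand. Pck1, which encodes the rate-limiting enzyme of gluconeogenesis, had ratios of 2.29, 3.72, 2.27 and 2.35.

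8430408G22Rik is Depp1, a protein linked to autophagy whose name records its induction by progesterone in decidua. Its ratios were 2.86, 2.54, 0.39 and 1.37, a mean of 1.79 ± 1.14. Fasted livers exceeded refed livers throughout, but the ratio was far larger on the arrays with the fasted liver in Cy5, and a difference between dye orientations was called for this probe (below). 4833411C07Rik, an uncharacterised lncRNA, had ratios of 1.62, 1.06, 1.82 and 2.62, a mean of 1.78 ± 0.65. The probe of Irs2, an adaptor protein of insulin signalling, lies 100727 bases away on the opposite strand. Irs2 had ratios of 1.38, 0.92, 1.21 and 1.88, a mean of 1.35 ± 0.40, and both it and the lncRNA were highest on replicate 4 and lowest on replicate 2. Pck1 and Irs2 were picked out after the values were seen.

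E030018B13Rik, an uncharacterised gene that RefSeq lists as protein coding, was measured by the probe printed above and by another. The printed probe gave ratios of 2.40, 2.31, 1.66 and 0.40 (mean 1.69 ± 0.92) and the other gave 1.75, 1.55, 1.27 and 0.24 (mean 1.20 ± 0.67). The probes ranked the arrays the same way, with replicate 4 lowest. 5330406M23Rik, which had no RefSeq match, had ratios of 2.19, 1.68, 0.66 and 1.34 (mean 1.47 ± 0.64).

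The next higher members had smaller means. 4930430D24Rik (Btg1c), an X-linked relative of the antiproliferative gene Btg1, had ratios of 0.55, 0.79, 0.63 and 0.65 (mean 0.66 ± 0.10). Btg1 itself had 1.45, 1.74, 0.96 and 1.33, and how far Btg1 transcripts bind the Btg1c probe cannot be read from these arrays. 1700056E22Rik had ratios of 0.42, 0.55, 0.79 and 0.86 with one probe, and its other probe had a mean of 0.45 ± 0.12. 9430037G07Rik, an lncRNA, had 1.01, 0.37, 0.85 and 0.39. The remaining members among the 12 largest were C230037E05Rik (0.62 ± 0.37), 4930473A06Rik or Ccdc171 (0.45 ± 0.36), 4833420G17Rik (1.07 ± 0.21 and 0.48 ± 0.26 with its probes) and 5730403B10Rik or Cdip1, a gene induced by p53 in apoptosis (0.77 ± 0.23 and 0.44 ± 0.21). 4931408D14Rik, an lncRNA with a mean of 1.01 ± 1.03, was kept out of these 12 because replicate 1 ran the other way, at -0.30, and its mean was 0.61 without replicate 4.

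**Figure D1:**
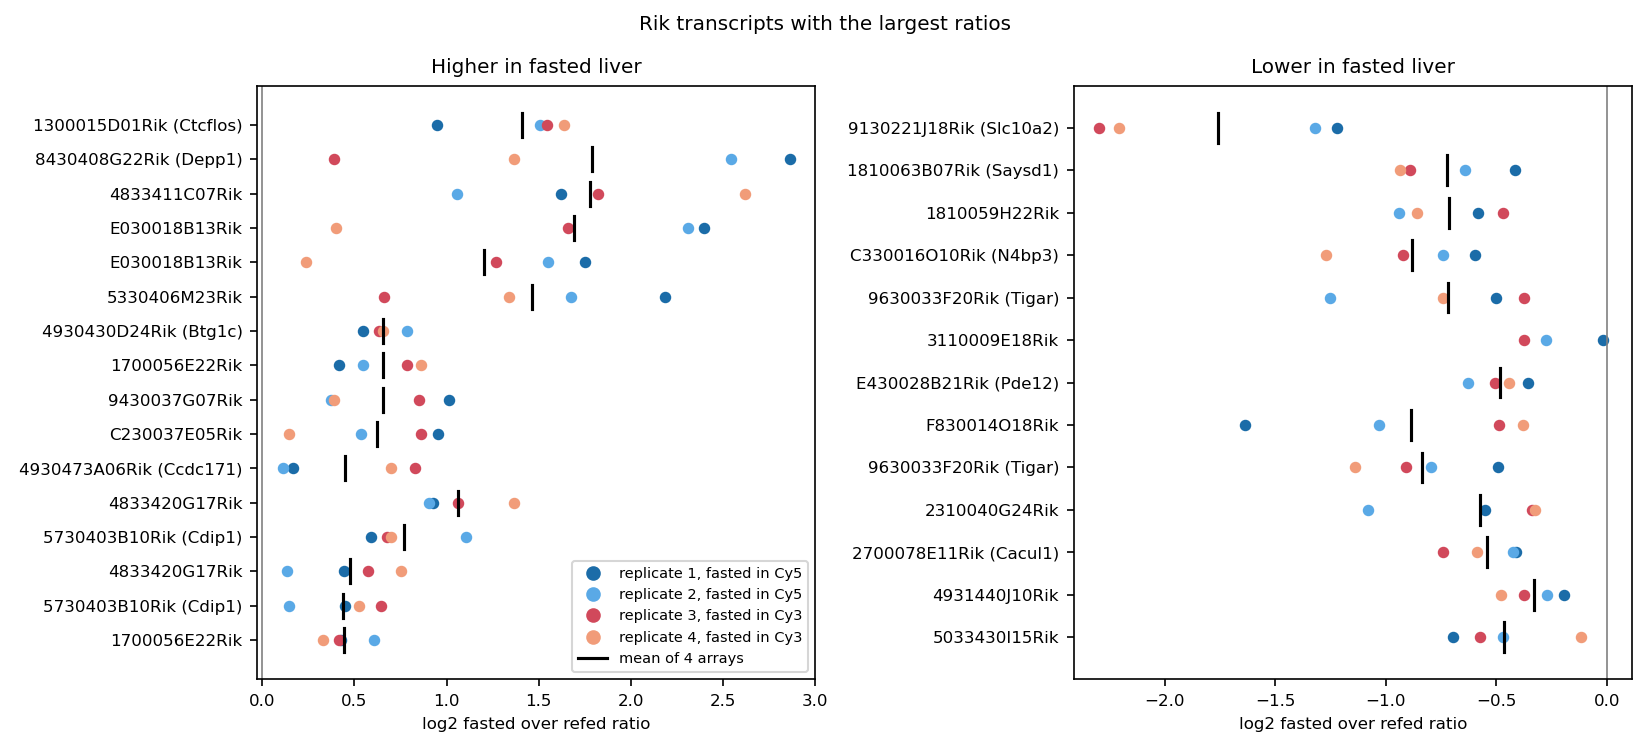
Log2 fasted over refed ratio (x axis) of each probe of the 12 Rik genes with the largest mean in each direction by processed signals, among those of 1 sign on all 4 arrays; points are arrays, coloured by replicate, and black bars are means of 4 arrays. Depp1 and 5330406M23Rik spread widely between the dye orientations, Btg1c stays between 0.55 and 0.79, and 3110009E18Rik has only 3 points and no mean because its spot on replicate 4 was flagged.

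The largest difference downwards was that of 9130221J18Rik, whose name RefSeq gives as a synonym of Slc10a2, the sodium-dependent bile acid transporter of ileum and bile duct cells. Its ratios were -1.22, -1.32, -2.30 and -2.21, a mean of -1.76 ± 0.57. The log2 levels of the fasted livers, 7.16 to 8.29, lay below all of the refed livers, 9.07 to 9.61. A probe that the array names Slc10a2 lies 2720 bases away on the same strand and had ratios of -0.85, -1.21, -1.29 and -1.19 (mean -1.14 ± 0.20). Both probes were lower in the fasted liver on every array, the Rik probe by more on each. Of the 4 cholangiocyte markers 2 were bright enough to measure, with means of -0.01, -0.30, -0.73 and -0.05 on replicates 1 to 4.

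1810063B07Rik (Saysd1), which encodes a membrane protein of the endoplasmic reticulum, had ratios of -0.41, -0.64, -0.89 and -0.93 (mean -0.72 ± 0.24, and -1.70 by processed signals). 1810059H22Rik, with no RefSeq match, had -0.58, -0.94, -0.47 and -0.86 (mean -0.71 ± 0.22), but another bright probe of the same name had a mean of 0.04. C330016O10Rik (N4bp3, a binding protein of the ubiquitin ligase Nedd4) had -0.60, -0.74, -0.92 and -1.27 (mean -0.88 ± 0.29).

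9630033F20Rik is Tigar, a phosphatase that lowers fructose-2,6-bisphosphate and so restrains glycolysis. Its adjoining probes had ratios of -0.50, -1.25, -0.38 and -0.74 (mean -0.72 ± 0.39) and of -0.49, -0.80, -0.91 and -1.14 (mean -0.83 ± 0.27). The means differed by less than either SD. The order of the arrays differed between them.

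E430028B21Rik (Pde12), a mitochondrial enzyme that trims poly(A) tails, had ratios of -0.36, -0.63, -0.50 and -0.44 (mean -0.48 ± 0.11). F830014O18Rik, with no RefSeq match, had -1.64, -1.03, -0.49 and -0.38 (mean -0.88 ± 0.58). 3110009E18Rik passed the rule through 1 array: by processed signals its ratios were -0.06, -0.63, -0.52 and -2.75, and the spot on replicate 4 carried an outlier flag; without it the mean was -0.40. The other bright probe of that gene had a mean of -0.14. The remaining members among the 12 largest were 2310040G24Rik (-0.57 ± 0.35), 2700078E11Rik or Cacul1, a cullin-related regulator of the cell cycle (-0.54 ± 0.16), 4931440J10Rik (-0.33 ± 0.12) and 5033430I15Rik (-0.46 ± 0.25).

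Over all members the median ratio was 0.44 for those higher in fasted liver, with means from 0.10 to 1.79, and -0.43 for those lower, with means from -1.76 to -0.16. The medians of the higher members on replicates 1 to 4 were 0.35, 0.35, 0.41 and 0.48, and those of the lower members were -0.33, -0.47, -0.40 and -0.42. The median over all 19707 probes kept in the fit was close to 0. By processed signals 86 of 107 higher and 44 of 54 lower members had the same sign on all 4 arrays. The levels of the 4 fasted and 4 refed livers did not overlap for 86 of 159 members (54.1%), where 13.6% of all kept probes did not overlap. With limma, at an adjusted p under 0.10 and a 1.5-fold difference, 26 higher and 10 lower members were called (22.6%), where the share over all kept probes was 3.78%. Both counts use the contrast that chose the members, so nothing is read from their excess.

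At the limit itself the selection was narrow. By processed signals 2310028H24Rik (Fam219a) at 0.5015 and 1700040L02Rik (Cabcoco1) at 0.5028 were just inside, while 3300002I08Rik at 0.4961 and 5830433I10Rik at 0.4944 were just outside. On the lower side 6030458C11Rik at -0.511 and C730037M02Rik at -0.5132 were inside, and 4921524J17Rik at -0.4942 and 2700023E23Rik at -0.4877, the latter now Dancr, were outside. By loess Cabcoco1 had a mean of only 0.10, or 0.032 and 0.15 without replicates 2 and 4.

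More than 1 bright probe was available for 28 member genes, 60 probes in all. In 13 genes every bright probe passed the limit. Beside E030018B13Rik, 1700056E22Rik, 4833420G17Rik, Cdip1 and Tigar these were 9430038I01Rik (1.05 and 0.83 by processed signals), 1810011O10Rik or Tcim (0.73 and 0.60), 4930422I07Rik or Zfp949 (0.72 and 0.61), 1810031K17Rik or Cnppd1 (0.68 and 0.63), D930015E06Rik or Tmem131l (0.62 and 0.56), 5930434B04Rik or Cacfd1 (-0.64 and -0.60) and C030034I22Rik (-0.55 and -0.53). 4930579G22Rik (Nupr1l), a relative of the stress-response gene Nupr1, passed with 3 probes (0.68, 0.62 and 0.55), though by loess their means were 0.33, 0.10 and 0.18, the second of which was 0.058 without replicate 3. By loess the lower Tcim probe had a mean of 0.22, or 0.10 without replicate 2. Both Tmem131l probes were negative on replicate 1 by processed signals, at -0.16 and -0.44. The Tmem131l probe at 0.56 had a loess mean of 0.17 ± 0.19, or 0.27 without replicate 1. The 9430038I01Rik probe at 1.05 was at -0.25 on replicate 1 by processed signals. Its loess mean was 0.46 ± 0.52, or 0.68 and 0.31 without replicates 1 and 4. The C030034I22Rik probe at -0.55 had a loess mean of -0.20, or -0.32 and -0.11 without replicates 1 and 3. Both probes of C030034I22Rik were positive on replicate 1 by processed signals. The means by processed signals are those that chose the members, and the probes of a gene share each RNA, so nothing is read from their agreement.

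In the other 15 genes at least 1 bright probe fell short of the limit. For most of these it stood on the same side and close by, as for A530082C11Rik or Slc35e2 (0.67 and 0.49), 2610019F03Rik or Tdrp (0.54 and 0.42), C130074G19Rik (0.54 and 0.40), 5830418K08Rik or Cep295 (0.53 and 0.36), A130040M12Rik (0.65, 0.43 and 0.40), 1190002N15Rik or Dipk2a (-0.53 and -0.36), C430048L16Rik or Rbm12b2 (-0.53 and -0.42), A130022J15Rik or Eogt (-0.58 and -0.46) and 2410075B13Rik or Ccdc166 (-0.59 and -0.38). The gap was wider for 2810416G20Rik (1.05 and 0.45), 2810021B07Rik or Mplkip (0.53, 0.29 and 0.28), 3110009E18Rik (-0.99 and -0.27) and 2210404J11Rik or Ermard (0.57, 0.25 and 0.06). The Ermard probe at 0.57 passed the rule through replicate 1, with ratios of 1.54, 0.26, 0.19 and 0.31 and a mean of 0.25 without that array. In 2 genes the probes had opposite signs: 1810059H22Rik (-1.21 and 0.08) and 4933440N22Rik (0.65 and -0.03).

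**Figure D2:**
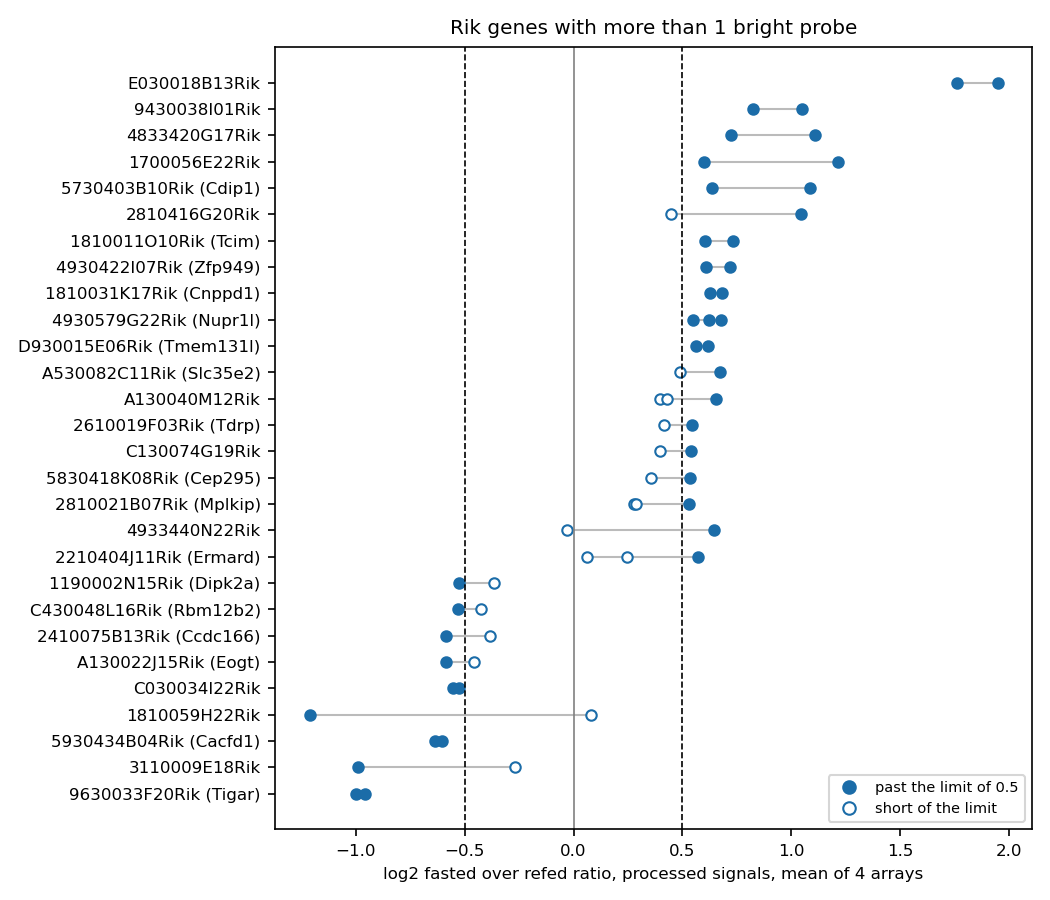
Mean log2 fasted over refed ratio by processed signals over 4 arrays (x axis) for each bright probe of the 28 Rik genes with more than 1; filled points passed the limit of 0.5 (dashed lines) and open points did not. The limit chose at least 1 probe of each gene; the means share a sign in 26 of 28 genes, and 1810059H22Rik and 4933440N22Rik are the exceptions.

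The dye swap gives a measure that the rule did not use. A probe that is brighter in Cy5 whichever liver carries it gives a dye effect, which in this balanced design does not enter the mean ratio. It also takes in any difference between the liver pairs of replicates 1 and 2 and those of replicates 3 and 4, and these cannot be told apart. In limma's test with a dye term, 25 of 159 members (15.7%) had a dye effect at an adjusted p under 0.10, where the background over all 19707 probes was 14.8%. In that fit the members' share was near that of the array, but this depended on the setting. With median centring in place of loess the shares were 6.29% of members and 2.89% of all probes. They were 18.2% and 6.44% with normexp on all spots. Of the 25, 8 were positive and 17 negative. Their median size was 0.43, beside 0.30 for the called dye effects over all kept probes, and this difference was not tested.

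The largest dye effect was that of Depp1 (0.91, SE 0.16, adjusted p = 0.041 in limma). 2310028H24Rik (Fam219a) had a dye effect of 0.80 (SE 0.06, adjusted p = 0.0042), larger than its mean ratio of 0.50. By processed signals it stood at 1.26 and 1.17 with the fasted liver in Cy5 and at -0.17 and -0.26 with it in Cy3, so that its direction turned with the dyes; by loess its mean was 0.21, 0.26 and 0.79 without replicates 1, 2 and 4. 1190005I06Rik had the opposite effect of -0.71 (SE 0.06, adjusted p = 0.0058), with ratios of 0.03 and 0.00 on replicates 1 and 2 and of 1.54 and 1.35 on replicates 3 and 4, and its mean of 0.73 was 0.46 without replicate 3. The ratio of 9130221J18Rik was unequal between orientations as well (0.49, SE 0.06, adjusted p = 0.021), though it kept its sign in both orientations.

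The other positive effects were those of one E030018B13Rik probe (0.66), 9530053J19Rik (0.49), 4930588N13Rik or Tex26 (0.47), 5330406M23Rik (0.47) and 2210021J22Rik or Cdpf1 (0.25). The other negative effects, from -0.67 to -0.22, were those of 4633401B06Rik, F830016B08Rik, F830014O18Rik, 2210403K04Rik (Mir22hg, the host transcript of a microRNA), 9030619P08Rik, one 9430038I01Rik probe, Dipk2a, 1700020C11Rik (Mtfp1, a factor of mitochondrial fission), E130012A19Rik (Epop), one Tmem131l probe, C130074G19Rik, 3010026O09Rik (Mrnip), Ccdc171, 5330421C15Rik, 1110020A21Rik and 1810062G17Rik. In 8 members the dye effect was larger than the mean ratio. These included Fam219a, 4633401B06Rik (-0.67 against 0.53), 9530053J19Rik (0.49 against 0.48), 9030619P08Rik (-0.43 against -0.16) and Tex26 (0.47 against -0.33). Without replicate 4 the mean of 4633401B06Rik was 0.23, and it was 0.82 without replicate 2. That of 9530053J19Rik was 0.21 without replicate 1. That of 9030619P08Rik ran from -0.30 to 0.04 as each array was left out, and that of Tex26 was -0.57, -0.13 and -0.21 without replicates 1, 3 and 4.

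**Figure D3:**
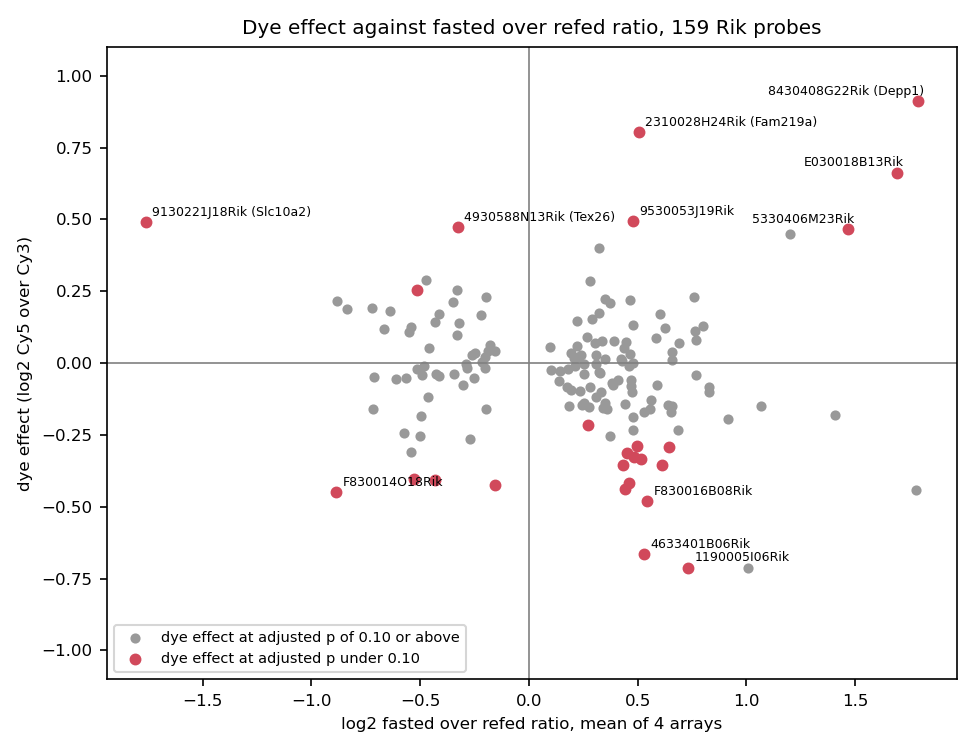
Dye effect as log2 Cy5 over Cy3 (y axis) against the mean log2 fasted over refed ratio (x axis) for the 159 Rik probes with a value on all 4 arrays; red points had an adjusted p under 0.10 for the dye effect in limma. The 25 red points lie on both sides, 8 above and 17 below 0, and Depp1 has the largest dye effect at 0.91.

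Of the 161 probes, 91 were matched to RefSeq genes (GRCm38.p6) by accession and 39 by name on the same chromosome, and 31 were not matched. Among the 96 gene names higher in fasted liver, 45 were protein coding (46.9%), 27 were lncRNAs (28.1%) and 24 had no match (25.0%). Among the 51 lower names, 33 were protein coding (64.7%), 10 were lncRNAs (19.6%), 7 had no match (13.7%) and 1, 9030619P08Rik, was of another class. Over all 1057 bright Rik names 58.7% were protein coding and 17.8% lncRNAs, and 21.8% had no match. These shares are descriptions, and no difference between them was tested. Of the matched names, 37 of 72 higher and 29 of 44 lower ones now carry another symbol in RefSeq (51.4% and 65.9%), beside 511 of 827 matched bright Rik names (61.8%).

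The renamed members come from unlike processes. Among those higher in fasted liver were 3110043O21Rik, now C9orf72, a regulator of autophagy and lysosomes (0.76 ± 0.15), 2810417H13Rik, now Pclaf, a factor bound to the replication clamp PCNA (0.83 ± 0.31), 1500012F01Rik, now Zfas1, an lncRNA that hosts small nucleolar RNAs (0.83 ± 0.13), and 6430573F11Rik, now Trmt9b, of the tRNA methyltransferase family (0.59 ± 0.18). Among those lower were 1190005F20Rik, now Trmt1l, another relative of tRNA methyltransferases (-0.43 ± 0.18), 1810035L17Rik, now Slirp, which binds mitochondrial mRNA (-0.54 ± 0.70, and -0.20 without replicate 1), and 4831426I19Rik, now Syne3, of the nuclear envelope (-0.29 ± 0.02). These were picked after their values were seen.

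Many Rik transcripts start beside another gene. In the RefSeq promoter table, 19 of 61 higher genes (31.1%) and 17 of 37 lower genes (45.9%) had a start site of another gene on the opposite strand within 1000 bases. The share was 30.1% among all bright Rik genes and 15.8% over all 27025 genes of the table. One such pair consisted of members on both sides: 1200016B10Rik (Swt1) and Trmt1l, whose start sites lie 107 bases apart, had mean ratios of -0.66 ± 0.18 and -0.43 ± 0.18. 2210009G21Rik (Slx4ip, -0.26) and Mkks (-0.64 ± 0.17), 188 bases apart, were also both lower. 4933439C10Rik (0.36) and Zkscan17 (1.08 ± 0.15), 987 bases apart, were both higher.

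Other pairs parted. Zfas1 was higher at 0.83, while Znfx1, whose start site lies 81 bases away, had a mean of -0.31 ± 0.29. 2310061J03Rik (Zbtb11os1) was at 0.80, while Zbtb11, 813 bases away, was at -0.04 ± 0.19. 1700056E22Rik and Dusp10, 383 bases apart, were at 0.65 and -0.12 ± 0.20. The member probe of 4933440N22Rik was at 0.32, while its other bright probe was at -0.03 ± 0.09. Hnrnpf, 401 bases away, had -0.35 ± 0.13 and -0.12 ± 0.16 with its 2 kept probes.

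**Figure D4:**
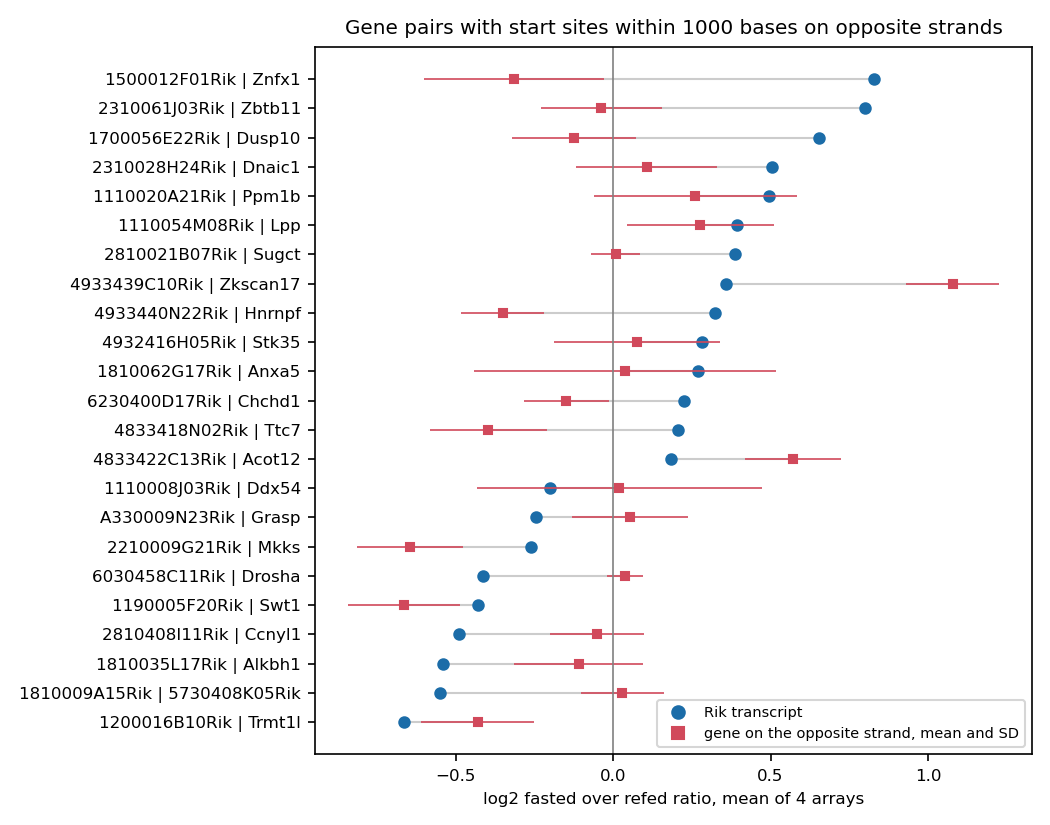
Mean log2 fasted over refed ratio over 4 arrays (x axis) of each Rik transcript (blue points) and of the gene whose start site lies within 1000 bases on the opposite strand (red squares with the SD over 4 arrays; of several probes the mean largest in size is shown), for pairs measured on both sides. Swt1 and Trmt1l, both Rik members, appear once from each side; Zfas1 at 0.83 stands opposite Znfx1 at -0.31.

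By position on the array (mm9), 107 members had a probe of a named gene within 50000 bases. The nearest such gene had the same direction in 64 of them (59.8%), beside 49.5% for the other bright Rik probes, and its mean was 0.5 or more in either direction for 10 (9.35%), beside 4.94% for the other bright Rik probes and 7.01% of all kept probes of named genes. These are descriptions, since neighbours share regions and several members share a neighbour. The 3 Nupr1l probes lay 5247, 6745 and 7719 bases from that of Scand3 on the same strand, which had ratios of 1.43, 1.19, 1.36 and 1.37. 9330133O14Rik (-0.35 ± 0.46, with replicate 1 at 0.23, and -0.54 and -0.18 without replicates 1 and 4) lay 12500 bases from Mvd, an enzyme of cholesterol synthesis, at -1.90 ± 0.63.

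Neighbours on opposite strands could also differ in direction over short distances. The probe of Cdpf1 had a mean of -0.51 ± 0.30, and 184 bases away a probe of Ppara, the nuclear receptor of the fasting response in fat oxidation, had 0.54 ± 0.36. The other 2 kept Ppara probes had 0.51 ± 0.50 and 0.60 ± 0.50. 3110062M04Rik (Cyren), a regulator of DNA end joining, had -0.46 ± 0.12, and Tmem140, whose probe abuts it on the other strand, had 0.76 ± 0.27. 2410006H16Rik, an lncRNA, had 0.68 ± 0.29, while BC046404 on the opposite strand had -0.40 ± 0.20 and -0.38 ± 0.21 with probes 86 and 81 bases away. The probes of each of these pairs cover different stretches on opposite strands.

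Promoter windows (250 bases before to 50 bases after a start site) were found for 61 higher genes in 71 windows and for 37 lower genes in 41 windows. They were searched on both strands for the full cAMP response element TGACGTCA and its shorter form TGACG, the CCAAT box of many basal promoters, the TATA box in the form TATAAA, the FOXO core TGTTTAC, the UPRE TGACGTGG, the E-box CACGTG, the heat shock pair GAANNTTC and the ERSE. TGACG is contained in TGACGTCA and TGACGTGG, and CCAAT in the ERSE. The cAMP response element is the site that CREB, a factor activated by glucagon, is known to bind, and FOXO factors are active when insulin is low.

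Shares are given for higher and lower members, then for all 850 windows of bright Rik genes and for all 32851 windows. TGACGTCA was found in 1 higher window (1110020A21Rik, 1.41%) and 1 lower window (Slx4ip, 2.44%), beside 3.88% and 1.79%. TGACG was in 25.4% and 34.1%, beside 31.6% and 20.8%. CACGTG was in 2.82% and 17.1%, beside 11.2% and 7.15%. TGTTTAC was in 4 higher windows (5.63%) and 1 lower window (2.44%), beside 5.76% and 3.65%. CCAAT was in 40.8% and 46.3%, beside 34.7% and 37.4%. TATAAA was in 11.3% and 4.88%, beside 9.88% and 13.6%, and GAANNTTC in 5.63% and 7.32%, beside 5.88% and 7.86%. TGACGTGG and the ERSE were in none of the member windows, beside 3.76% and 0.676% for the former and 0.118% and 0.119% for the latter. A match of letters is a description and not a measured site.

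The windows of 4833411C07Rik, Saysd1, Tigar and Swt1 are shown because these are a member higher beside Irs2, members among the largest downwards and a shared start region. They are RefSeq sequences of GRCm38.p6, 5′ to 3′ on the gene's strand, with capitals on the motifs listed above.
4833411C07Rik (chr8:10899672-10899971, + strand, TGTTTAC): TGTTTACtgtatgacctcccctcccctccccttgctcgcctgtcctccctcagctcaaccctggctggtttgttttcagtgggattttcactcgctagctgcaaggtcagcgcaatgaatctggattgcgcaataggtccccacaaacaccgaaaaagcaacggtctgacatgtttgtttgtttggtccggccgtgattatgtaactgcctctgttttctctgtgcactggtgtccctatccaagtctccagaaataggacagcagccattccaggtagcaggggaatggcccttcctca
Saysd1 (chr14:20083123-20083422, - strand, an E-box, the shorter response element and a heat shock pair): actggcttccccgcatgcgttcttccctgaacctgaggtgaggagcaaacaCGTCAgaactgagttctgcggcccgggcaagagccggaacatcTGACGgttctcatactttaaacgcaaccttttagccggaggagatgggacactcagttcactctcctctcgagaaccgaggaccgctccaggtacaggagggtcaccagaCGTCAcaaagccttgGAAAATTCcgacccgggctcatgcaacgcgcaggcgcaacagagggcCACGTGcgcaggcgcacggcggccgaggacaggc
Tigar (chr6:127109503-127109802, - strand, CCAAT and TGACG): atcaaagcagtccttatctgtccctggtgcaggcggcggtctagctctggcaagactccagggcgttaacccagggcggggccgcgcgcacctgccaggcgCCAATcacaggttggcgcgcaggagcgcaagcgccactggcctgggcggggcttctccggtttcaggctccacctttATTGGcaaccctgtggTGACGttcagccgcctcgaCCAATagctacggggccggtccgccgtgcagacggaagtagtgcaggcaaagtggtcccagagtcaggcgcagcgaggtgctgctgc
Swt1 (chr1:151428386-151428685, - strand, CCAAT): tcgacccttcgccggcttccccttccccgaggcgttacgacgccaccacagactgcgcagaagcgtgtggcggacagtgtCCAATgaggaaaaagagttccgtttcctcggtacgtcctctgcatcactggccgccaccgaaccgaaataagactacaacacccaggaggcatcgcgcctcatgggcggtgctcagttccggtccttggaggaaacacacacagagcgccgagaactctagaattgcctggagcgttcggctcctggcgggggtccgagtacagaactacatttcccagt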

How the data were processed

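Total RNA of individual livers (200 ng each) was hybridised by the authors to 4 two-colour Agilent arrays with a dye swap, and the deposited scanner files hold the intensity of each spot (pixel medians and means, local background, processed signals and flags), made with Feature Extraction (10.10.1.1 per the file headers; another version in the study's methods) on mm9. The authors also deposited log2 ratios normalised by loess in limma, with no stated background step, matched here by row number. Members were found from processed signals. For the fit, spots whose local background exceeded 3 times the array median were left out (0 to 29 per array), median signals were corrected by normexp (offset 50), control and outlier-flagged spots (197 to 322 per array) were left out, ratios were loess-normalised and turned to fasted over refed, and spots of a probe were averaged (limma 3.58.1, R 4.3.3). Kept probes (19707) were well above background on all 4 arrays in at least 1 condition's channel. Levels were compared after Aquantile scaling. Dye effects were tested with lmFit and eBayes, two-sided, with Benjamini-Hochberg adjustment. The script was tested on simulated data. Named members were the 12 genes with the largest ratio each way among those of 1 sign, those with several bright probes, those with a dye effect and those nearest the limit; others are named as chosen later. Members and lists were chosen with earlier results of these data known. Sequences are printed for 8 member probes, and that of 1 other is not reported here.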

Additional observations from a re-analysis of the deposited data

Results flagged for a closer look

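With 4 values a group is tested by the gap of an extreme value to its neighbour over the whole range, and chance gives about 1 such gap in 20 groups. Of 92 member probes named with values, 4 had such an array: 2310061J03Rik (Zbtb11os1) at 1.26 on replicate 2, 2210404J11Rik (Ermard) at 1.54 on replicate 1 by processed signals, the D930015E06Rik (Tmem131l) probe with the smaller ratio at -0.11 on replicate 1, and C730037M02Rik at -0.32 on replicate 4. The pancreatic acinar markers did on replicate 3, at a mean ratio of -3.26, and the median of the lower members without that array was -0.41. Among the genes beside members, Pck1 stood apart on replicate 2 at 3.72 and Mvd on replicate 1 at -0.96.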

How the results depend on the processing

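All 4 arrays together set the precision. The alternatives were not split by brightness, so how far dim probes depend on the background step was not tested. The members counted 66 higher and 33 lower at a 1.5-fold limit, 39 and 19 with loess ratios in place of processed signals, 55 and 24 with the authors' deposited log2 ratios (matched by row number, with correlations to the processed ratios of 0.32, 0.68, 0.72 and 0.75 on replicates 1 to 4), and 86 lower where only 1 condition's channel had to be bright; leaving out 1 array gave 103 to 125 higher and 45 to 70 lower. The median of the higher members was 0.56 with plain background subtraction, 0.20 with normexp on all spots, 0.63 with processed signals and 0.37 with median centring, and 0.38 to 0.46 without 1 array; that of the lower members was -0.55, -0.23 and -0.60 under the first 3 of these and -0.46 to -0.40 without 1 array. Over all kept probes 335 were called higher and 410 lower; the counts were 549 and 713 with plain subtraction, 5 and 15 with normexp on all spots, 685 and 903 with processed signals, 635 lower with median centring, and 208 to 413 higher and 256 to 525 lower without 1 array, the lowest without replicate 3. Dye effects were called for 4 members (2.52%, beside 2.3% of all probes) with processed signals and 10 (6.29%, beside 2.89%) with median centring, and for 3 to 29 without 1 array: 10 (6.29%, beside 2.01%) without replicate 3 and 3 (1.89%, beside 1.08%) without replicate 4. With normexp on all spots the shares were 18.2% and 6.44%. Under median centring the array medians moved by up to -0.15, on replicate 1. Of 825 values of named members under alternatives 108 moved by more than the SD, 35 of them towards 0 with normexp on all spots and 33 and 27 away from 0 with processed signals and plain subtraction, and 3 changed sign: 9030619P08Rik, which ran from -0.30 to 0.04 without 1 array and was positive without replicate 2, and with normexp on all spots Tex26 (4930588N13Rik) at 0.06 and a probe of C030034I22Rik at 0.01. The cause was not tested. Each array's ratio is a difference within a liver pair, so every fit was paired and no further block was added.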
